A study of Caenorhabditis elegans with 6 samples.

Results

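The cytosolic ribosomal protein genes of C. elegans were taken as every gene in the deposited table whose symbol begins with rpl-, rps- or rla- followed by a digit. This rule found 81 of 31180 genes: 47 rpl- genes, counted by symbol as the large subunit, 31 rps- genes of the small subunit and 3 rla- genes of the stalk. The symbol rule used names only and no measured value. The ribosome reads mRNA on its small subunit and joins amino acids on its large subunit, and each subunit is built from rRNA and a set of small, mostly basic proteins. Most of these proteins are present in a single copy per ribosome, while the stalk, which recruits the elongation factors, carries several copies of its acidic proteins. Genes for these proteins are known as some of the most abundantly transcribed in growing animals.

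RNA was sequenced from whole worms of the wild-type strain N2 (Bristol) at the L4 stage, the last larval stage. The HS animals were exposed to 35°C for 4 h and the CTRL animals stayed at 20°C, with 3 libraries per condition and no mutation or transgene in either. All animals were fed OP50 bacteria. Total RNA was depleted of rRNA and sequenced with a strand-specific protocol. The values used here are baseMeans, the authors' mean normalized count of each gene over all 6 libraries, HS and CTRL together. Values of single libraries and the HS against CTRL difference of the ribosomal protein genes were not analysed here, so no test, replicate error or depth per library is given, and all levels below describe the pooled set. A level in whole worms cannot tell the number of cells that express a gene from the amount of RNA in each cell.

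The baseMeans of all genes summed to 33024039, and 18 annotated rRNA genes held 46.9% of this sum after rRNA depletion. Other levels are therefore given against the 18768 protein-coding genes (PCGs) with an annotated coding length, which summed to 15684741. The 16 marker genes of muscle, pharynx, intestine, hypodermis, neurons, germ line and sperm, and of the yolk made by the adult intestine, were all above 0. They ran between 67.3 for the neuronal gene unc-119 and 97339 for the muscle myosin gene unc-54. Every PCG was above 0, the lowest at 0.114, so values above 0 are no check of the whole-organism label. The yolk genes vit-2 and vit-6, which are known for expression in adults, had baseMeans of 43276 and 78904. The part of any adult animals in the L4 values was not tested.

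The 81 ribosomal protein genes made up 0.432% of the PCGs and held 11.4% of their summed baseMean, 1789589 in all. Their median baseMean was 20794 (quartiles 14850 and 27253), against 120 (quartiles 11.7 and 586) for the other 18687 PCGs. A baseMean of at least 10000 was reached by 73 of the 81 genes, of at least 20000 by 42, and of at least 40000 by 5. The large subunit genes supplied 54.6% of the summed baseMean of the set, the small subunit genes 40.8% and the stalk genes 4.60%.

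Single baseMeans were highest for rla-0, rpl-3 and rps-0. The rla-0 gene (I:10567894-10569017, + strand), which encodes the P0 protein at the base of the stalk, had a baseMean of 57606 and rank 9 among all PCGs. The rpl-3 gene (III:3867854-3869587, + strand) encodes the longest protein of the set, 401 residues, which lies near the site of peptide bond formation, and it had a baseMean of 51527 and rank 11. The rps-0 gene (III:4753007-4754051, - strand), which encodes a protein near the exit of the mRNA from the small subunit, had a baseMean of 46891 and rank 13. Next came rpl-4 with 43503, whose protein lines the tunnel for the nascent chain, and rpl-7 with 41877. The highest PCG of all was eef-1A.1, the elongation factor that brings aminoacyl-tRNA to the ribosome, with 140188.

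A longer mRNA gives more fragments, so genes were compared per kb of coding length, counted without the stop codon and taken from the Ensembl annotation of the WBcel235 build. On this scale the ribosomal protein genes lay close together. Their median level was 44915 baseMean per kb, and the upper quartile (54480) was 1.43 times the lower (38050). The other PCGs had a median of 126 per kb, and there the upper quartile (502) was 33.6 times the lower (14.9). The median ribosomal protein gene thus stood 356-fold above the median of the other PCGs. Of the 100 PCGs highest per kb, 72 were ribosomal protein genes, and of the highest 200, 77 were. By baseMean, with no division by length, these counts were 42 of the highest 100 and 67 of the highest 200.

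**Figure D1:**
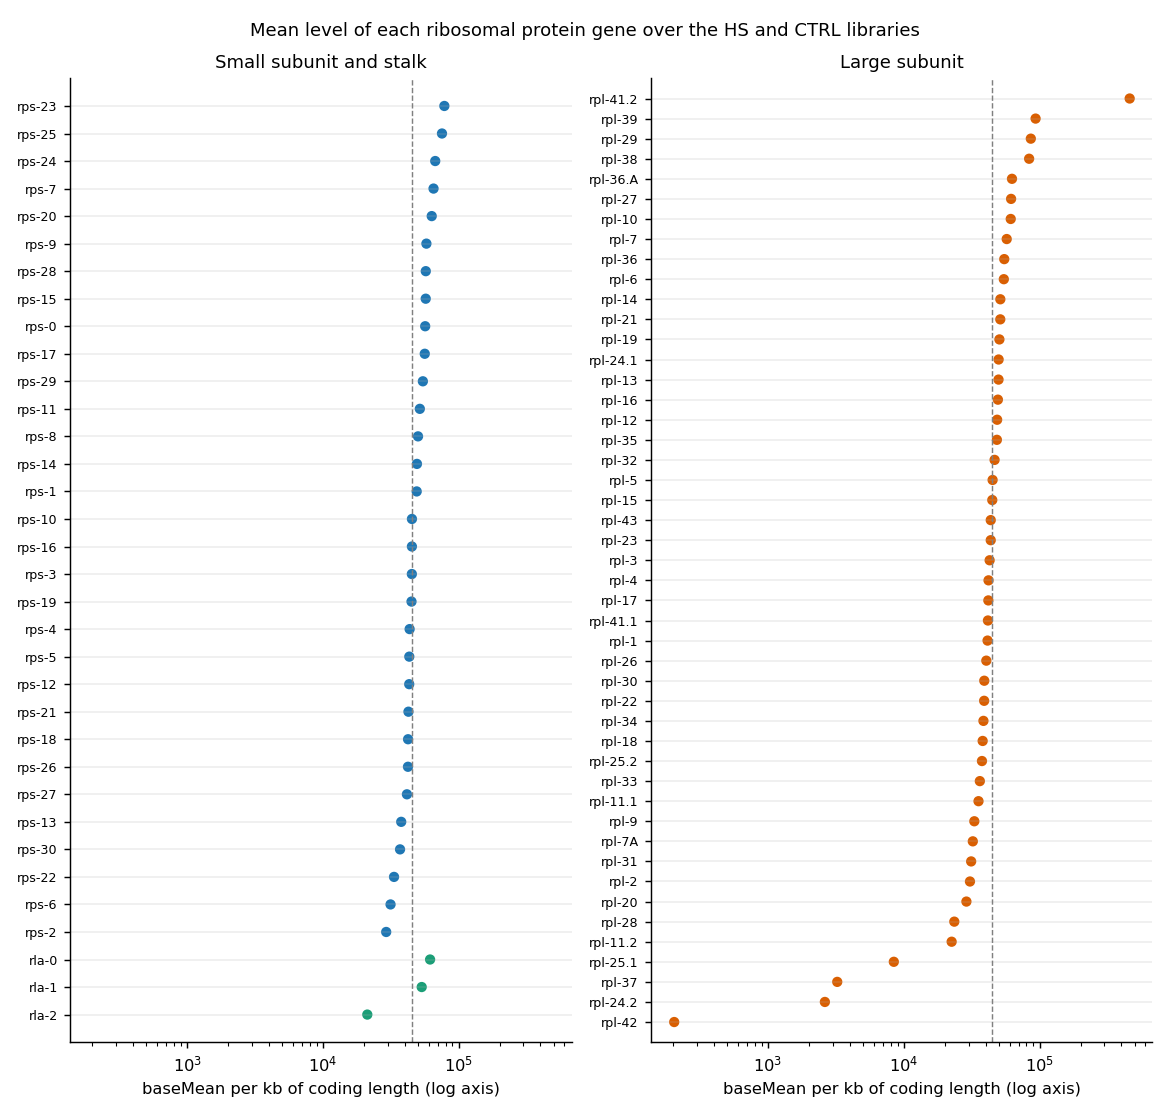
Level of each of the 81 genes, as baseMean per kb of coding length on a log axis, with small subunit genes in blue, stalk genes in green and large subunit genes in orange. Each point is 1 gene's mean over the 6 libraries and the dashed line is the median of 44915. Most points lie near the line, rpl-41.2 lies far to the right, and rpl-42, rpl-24.2, rpl-37 and rpl-25.1 lie far to the left.

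Within a 2-fold distance of the median per kb lay 74 of the 81 genes. Above that range were rpl-41.2 and rpl-39, and below it were rpl-42, rpl-24.2, rpl-37, rpl-25.1 and rla-2. All 81 genes spanned a 2261-fold range per kb. Without rpl-41.2 and the 4 lowest genes, which were left out by these same values, the other 76 spanned 21224 to 93362 per kb, a 4.40-fold range. Per kb of summed exon length, which adds the UTRs, 72 genes lay within 2-fold of the median, 1 above and 8 below. The same 76 genes then spanned 8297 for rpl-41.1, which had 41613 per kb of coding length, to 69766 for rps-23, and rpl-39 had 60527.

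The small subunit genes were the more even set. Their 31 levels ran between 29240 and 78385 per kb with a median of 45250, and the SD over genes was 0.34 on the log2 scale. The large subunit genes had a median of 42832 per kb and an SD over genes of 1.56 on the log2 scale, with a range of 204 to 460299 that the outlying genes set. The middle of both sets was of like width: the upper quartile was 1.34 times the lower for the small subunit and 1.42 times for the large. The ratio of the small to the large subunit median was 1.06, and no replicate error can be put on it.

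The highest small subunit gene per kb was rps-23 (IV:12390298-12391053, - strand), which encodes a protein of the decoding centre, with 78385. Next were rps-25 with 75300 and rps-24 with 67150. The lowest was rps-2 with 29240 per kb, followed by rps-6, whose protein is the classical substrate of the S6 kinase, with 31478. The proteins of rps-2 and rps-3 sit where the mRNA enters, and rps-3 had 45176 per kb. Per kb of coding length, no small subunit gene lay outside 2-fold of the median of the full set. Per kb of exon length, rps-22 had 18447 and was among the 8 genes over 2-fold below that scale's median of 38877.

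The stalk genes differed among themselves. Per kb, rla-0 had 61545, rla-1 (I:2069086-2069575, - strand) had 53393 and rla-2 (IV:13369425-13370285, - strand) had 21224. The products of rla-1 and rla-2 are the acidic proteins P1 and P2, which bind P0 as pairs, and their coding lengths were nearly equal, 333 and 330 bases. Their baseMeans were 17780 and 7004. The rla-2 gene was thus the fifth lowest of the set per kb, and rla-0 the twelfth highest. Genes for stalk proteins under other names were not sought.

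The large subunit genes with the highest levels per kb encode very small proteins. The rpl-41.2 gene (I:4790292-4790642, + strand) encodes 22 residues that bridge the subunits, and its 460299 per kb was the highest level of any PCG. That value divides by a coding length of 66 bases. Per kb of its 280 exon bases the level was 108499, still first in the set. The rpl-39 gene (V:7775742-7776079, - strand), for a 51-residue protein of the exit tunnel, had 93362 per kb. The rpl-29 gene (IV:13882225-13882618, + strand; 62 residues) had 86097 and rpl-38 (V:15512166-15512737, + strand; 70 residues) had 83660.

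At the other end stood 4 rpl- genes. The lowest was rpl-42 (II:11092713-11094022, + strand, 5 exons), with a baseMean of 86.7 and 204 per kb, which placed it at rank 10250 of the PCGs by baseMean. The rpl-24.2 gene (I:9669415-9670098, + strand) had a baseMean of 1274 and 2620 per kb. Its yeast relative Rlp24 is an assembly factor of the large subunit and not a protein of the finished ribosome. By its symbol rpl-24.2 is still counted in all large subunit values here. The rpl-37 gene (III:3528642-3528917, + strand) had a baseMean of 882 and 3231 per kb. It is annotated as a single exon without introns and lies inside an intron of pitp-1 on the opposite strand, with 0 exon bases in common. The rpl-25.1 gene (X:4715178-4715796, + strand) had a baseMean of 3720 and 8435 per kb.

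Before division by length, the baseMean of ribosomal protein genes followed their coding length. Over the 81 genes Spearman's rho was 0.73 and Pearson's r of the log2 values 0.40, against 0.37 for both measures over the other 18687 PCGs. These are correlations across genes of 1 pooled mean, and genes are not independent replicates. Per kb the relation was small, with rho of -0.14 and r of -0.16. Without the rpl-41 genes (n = 79) rho was -0.12 and r was -0.03. The 11 genes under 300 coding bases had a median of 54457 per kb, the 49 genes of intermediate length 43632, and the 21 genes of at least 600 bases 45037. The coding length less 99 bases counts the start positions of a read of 100 bases and leaves 9 genes in the shortest class. On it these medians were 116234, 58031 and 52143, so the level of the short genes depends on how length is counted.

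**Figure D2:**
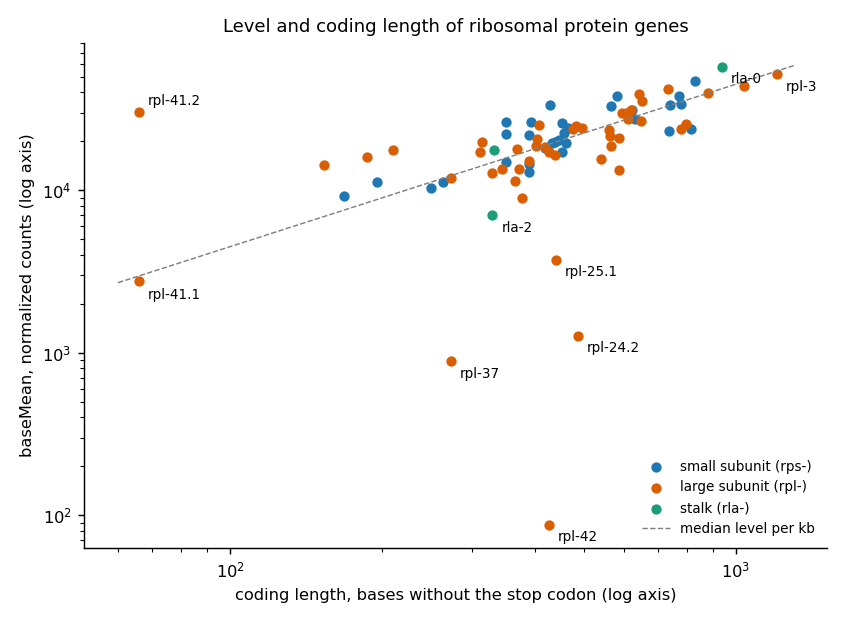
baseMean against coding length for the 81 genes, both on log axes, coloured by subunit. The dashed line is the median level of 44915 per kb. Most points run along the line, while rpl-42, rpl-37, rpl-24.2 and rpl-25.1 fall below it and rpl-41.2 lies above it.

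A number is shared by 4 pairs of genes, and both genes of each pair were detected at unequal levels. The rpl-24 pair differs from the others in that the yeast relative of rpl-24.2 is an assembly factor, so these genes are not taken as copies. Both rpl-11.1 (V:3585312-3586064, - strand) and rpl-11.2 (X:2241738-2242618, - strand) encode 196 residues of the protein that binds the small 5S rRNA together with the rpl-5 product. They had baseMeans of 20851 and 13223, a 1.58-fold difference. The rpl-25 genes encode the protein at the mouth of the exit tunnel, and rpl-25.2 (I:8329062-8329647, - strand) had a baseMean of 16470, 4.43-fold that of rpl-25.1 (3720). The tandem genes rpl-41.1 (I:4789190-4789592, + strand) and rpl-41.2 had 2746 and 30380, an 11.1-fold difference. Between rpl-24.1 (I:4585115-4586176, + strand), for a protein of an intersubunit bridge, and rpl-24.2 the difference was 18.7-fold, with 23792 for rpl-24.1 and 1274 for rpl-24.2. Per kb of coding length the folds were 1.58 for rpl-11, 4.46 for rpl-25, 11.1 for rpl-41 and 19.0 for rpl-24.

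The lower gene gave 38.8% of the pair's sum for rpl-11, 18.4% for rpl-25, 8.29% for rpl-41 and 5.08% for rpl-24. Where copies are nearly identical, as the equal lengths of the rpl-11 and rpl-41 pairs allow, reads can fit both genes and their split between them is uncertain. The sequences of the copies were not compared here. The names rpl-7 and rpl-7A, and rpl-36 and rpl-36.A, belong to distinct proteins. They had baseMeans of 41877 and 25596 for the first pair of names, and of 17120 and 19708 for the second.

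**Figure D3:**
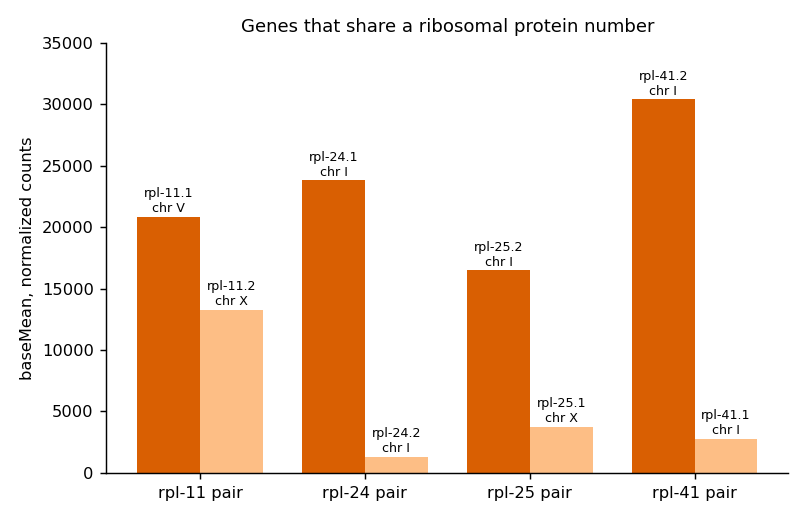
baseMean of the 4 pairs of genes that share a ribosomal protein number, with the higher gene of each pair in dark orange and the lower in light orange, and the chromosome over each bar. Bars start at 0 and carry no error since each is 1 pooled mean. The rpl-11 genes are the closest (20851 and 13223), and rpl-24.2 and rpl-41.1 are small beside their partners.

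Ribosomal protein genes were placed unevenly on the chromosomes. Chromosome I held 25 of 81 (30.9%, against 14.8% of all PCGs), and chromosomes III and IV held 18 each (22.2%, against 13.6% and 16.8%). Chromosome II held 10 (12.3%, against 17.2%). Only 8 lay on V (9.88%, against 23.8%) and 2 on X (2.47%, against 13.8%). Those on X were rpl-11.2 and rpl-25.1, each the lower gene of its pair.

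Within 5000 bases of each other lay 5 pairs of ribosomal protein genes. Close or divergent pairs were not counted over all PCGs, so these are not shown to be a trait of the set. In 3 of them the genes pointed away from each other with no gene between: rps-10 and rpl-24.1 (609 bases apart), rps-14 and rpl-36 (662 bases) and rpl-39 and rps-30 (498 bases). The first of these pairs had 45250 per kb for rps-10 and 49879 for rpl-24.1, and the second had 49253 for rps-14 and 54870 for rpl-36, all near the median of the set. In the pair of rpl-39 and rps-30, whose product in mammals is made fused to a ubiquitin-like protein, the levels per kb were 93362 and 36980, although the baseMeans were close, 14284 and 14422. The tandem rpl-41 genes were 699 bases apart and differed 11.1-fold. The convergent genes rpl-42 and rpl-36.A, 2519 bases apart with 1 gene between, had 204 and 62565 per kb.

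The genes were short, with a median coding length of 441 bases (66 to 1203), against 1002 for all PCGs. They carried a median of 3 exons and 172 intron bases, against 5 exons and 767 intron bases. Of the 81, 72 (88.9%) had 2 to 4 exons, against 36.8% of PCGs, and 2, rpl-37 and rpl-43, had a single exon. Both single-exon genes have 273 coding bases, and rpl-43 had 43637 per kb, close to the median.

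Introns of the ribosomal protein genes held small nucleolar RNA (snoRNA) genes. These RNAs guide the chemical modification of rRNA and, in animals, are often cut out of introns. In all, 19 snoRNA genes lay inside 13 of the 81 genes (16.0%), against 135 of the other 18687 PCGs (0.722%) with a snoRNA gene on their strand. All 19 were on the strand of the host and shared 0 bases with its exons. These were 19 of the 172 snoRNA genes that lie inside a PCG on its strand. The 13 hosts had a median of 43512 per kb, against 45107 for the other 68 genes, and a median of 396 intron bases, against 144.

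The baseMeans of these snoRNA genes, not corrected for length, spread more widely than those of their hosts. Their median baseMean was 477, against 40.9 for the 153 snoRNA genes inside other PCGs and 10.8 for the 144 elsewhere. The hosts differed too: the 135 other host PCGs had a median baseMean of 1133, while the 13 ribosomal hosts ran between 9149 and 43503. Whether the snoRNA difference goes beyond that of the hosts was not tested. The highest was Y24D9A.9 in rpl-7A with 10841, or 42.4% of its host. Next were F54E7.10 in rps-12 with 2920, F28D1.13 in rps-23 with 2041, F54E7.11 in rps-12 with 1301 and C16A3.11 in rps-13 with 1251. The lowest was B0041.9 in rpl-4 with 2.60, although rpl-4 was the highest host with 43503. By baseMean, the median snoRNA gene stood at 2.25% of its host. Per kb of exon length, Y24D9A.9 had 49052, above the 29867 of rpl-7A. Each of the remaining snoRNA genes stood below its host per kb, the next highest being F54E7.10 with 22118, against 36730 for rps-12. Reads of a snoRNA gene and of unspliced host RNA cannot be told apart in these introns. The paper describes mature snoRNAs as too short for such libraries, and reports snoRNA transcripts with extended 3′ ends under HS but not CTRL. The part of such extended forms in these pooled values was not tested.

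**Figure D4:**
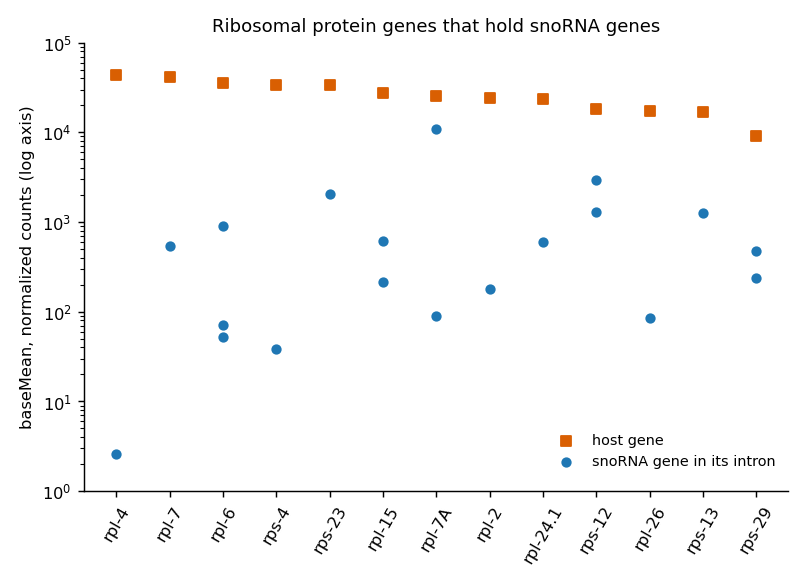
baseMean on a log axis of the 13 ribosomal protein genes that hold snoRNA genes (orange squares) and of the 19 snoRNA genes in their introns (blue points), with hosts ordered by baseMean. Host levels lie between 9149 for rps-29 and 43503 for rpl-4, while the snoRNA genes run between 2.60 and 10841.

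Overlap with other PCGs took up a small part of the exons. A PCG overlapped 15 of the 81 genes, 4 of them on the same strand. The share of all PCGs with such an overlap was not computed, so this count has no background beside it. The highest of the overlapping PCGs was bcs-1, which overlaps rpl-5, with a baseMean of 910. Exon bases shared with a PCG came to at most 8.36% of a ribosomal protein gene's exons, for rps-18, and to at most 2.50% on the same strand. The miRNA gene mir-354, with a baseMean of 4389, lies wholly within the annotated exons of rps-20 (22212) on the same strand and covers 18.7% of them, so reads of the 2 genes cannot be told apart there. The miRNA gene mir-353 lies in an intron of rpl-24.1 and had a baseMean of 89.6.

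The 3 ribosomal protein genes listed outside the symbol rule had levels of the same order. This list was not a search for every such gene, and genes known only by a sequence name were not sought. The small subunit protein gene rack-1 had 42734 per kb, ubl-1, which encodes a small subunit protein fused to a ubiquitin-like protein, had 36299, and ubq-2, which encodes ubiquitin fused to a large subunit protein, had 54143.

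The median of the 81 genes per kb stood above the medians of the other groups of translation genes, while single genes overlapped: eef-1A.1 exceeded all but rpl-41.2, and rpl-42 lay below the median of every other group. The 8 elongation factor genes had a median of 16582 per kb, and the median of the ribosomal protein genes was 2.71 times that. Among them eef-1A.1 had 100928 per kb, eef-2, the translocase, had 39107 and eef-1G had 30150. The 25 initiation factor genes found, of 27 listed, had a median of 2533 per kb, which the ribosomal protein median exceeded 17.7-fold. The highest of them was pab-1, the poly(A)-binding protein gene, with 17814, and the lowest was ife-5, a cap-binding protein gene, with 163.

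The 16 ribosome biogenesis genes found, of 21 listed, had a median of 1535 per kb, and the ribosomal protein median was 29.3 times that. Their highest levels were those of nucl-1 (nucleolin), with 7239, and fib-1 (fibrillarin, the methyltransferase that works with one class of snoRNAs), with 6874. Of the 81 ribosomal protein genes, 78 lay above nucl-1, the exceptions being rpl-42, rpl-24.2 and rpl-37.

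Mitochondrial ribosomal proteins build the separate ribosome of that organelle, and their 69 mrpl- and mrps- genes had a median of 1110 per kb. The cytosolic median was 40.5 times that, and the cytosolic sum of baseMeans 29.3 times the mitochondrial sum. The mitochondrial genes ran between 580 for mrps-25 and 5484 for mrpl-44, and the same 78 cytosolic genes lay above mrpl-44. As in the cytosolic set, the quartiles were close, the upper being 1.52 times the lower. Shares of the PCG sum were 11.4% for cytosolic ribosomal proteins, 2.02% for elongation factors, 0.688% for initiation factors, 0.461% for biogenesis factors and 0.389% for mitochondrial ribosomal proteins.

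**Figure D5:**
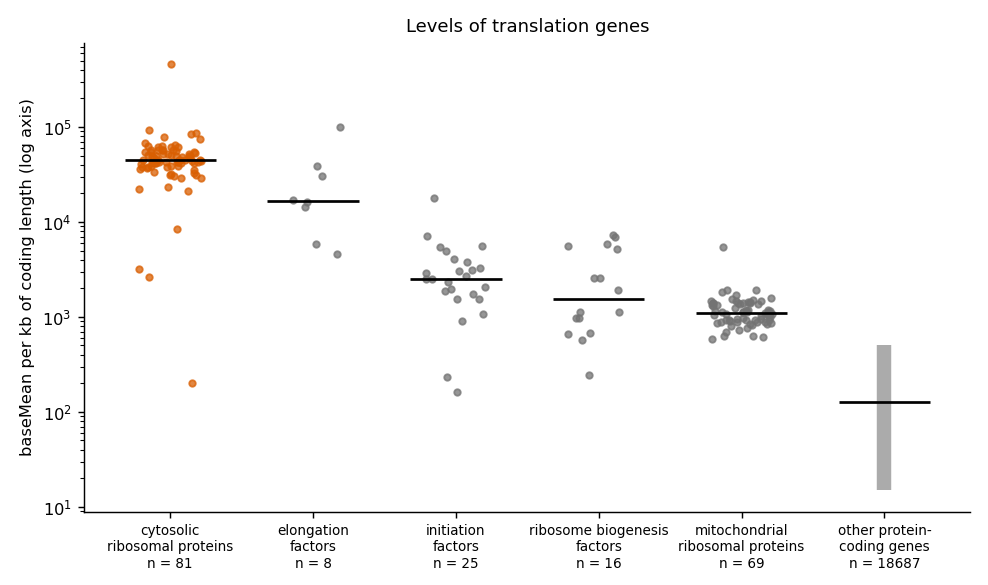
baseMean per kb of coding length, on a log axis, for the 81 cytosolic ribosomal protein genes (orange) and for other groups of translation genes (grey). Each point is 1 gene, black lines are medians, and the grey bar spans the quartiles of the other 18687 PCGs (14.9 and 502). The cytosolic set has the highest median, 44915, and 4 of its genes (rpl-42, rpl-24.2, rpl-37 and rpl-25.1) lie below 10000.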

How the data were processed

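RNA-seq of 3 HS and 3 CTRL libraries was analysed from 1 deposited table. The authors used STAR for alignment to WBcel235, featureCounts for counting on genes of Ensembl release 88, and DESeq2 for the HS against CTRL comparison. The tools' versions are not given in the sources used here. The baseMean, a signal value deposited by the authors for each gene, is the count divided by DESeq2 size factors and averaged over all 6 libraries, which corrects for depth and not for gene length. The other columns hold the authors' log2 fold change, standard error, statistic, p-value and adjusted p-value, and were not used. The table has 0 columns of single libraries, so depth per library is unknown, and the planned HS against CTRL test was not run.

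Symbols came from the gene names supplied for the WormBase identifiers, and 2454 genes had none. Positions, biotypes and lengths came from Ensembl release 115 of WBcel235, which may differ from the gene models counted by the authors. All 81 ribosomal protein genes had a position. Coding length is that of the longest coding sequence without the stop codon. Neighbours were sought within 5000 bases. Versions were matplotlib 3.10.9, scipy 1.17.1, numpy 2.4.6, pandas 2.3.3 and Python 3.11.15, and the scripts were first checked on artificial input with known answers.

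The gene set and all lists were chosen with earlier results of these data known. Of the genes in the set, those named are the 5 highest and 5 lowest per kb, the 3 highest by baseMean, the stalk genes, genes sharing a number, and others for their role, protein length, position or overlap, and the snoRNA hosts, neighbours and overlapping genes were picked only once their values were known. The other genes named come from the lists of markers, elongation, initiation and biogenesis factors, and from mrpl- and mrps- genes. A list of 3 ribosomal protein genes outside the symbol rule was used as well. Of the listed symbols, 7 were not found.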

Additional observations from a re-analysis of the deposited data

How the results depend on the processing

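The share of the summed baseMean held by the 81 genes, 11.4% of the PCG sum, was 5.42% of the sum over all genes and 10.2% of that sum without rRNA genes. It was 11.9% with ubl-1, ubq-2 and rack-1 added and 11.6% among genes with a baseMean of at least 100. The median level of 44915 per kb was 20794 with no correction for length. It was 58123 with the coding length less 99 bases, which drops the rpl-41 genes (79 genes left). It was 44976 for the 80 genes with a baseMean of at least 100, 44848 with the 3 added genes, 45176 with 1 gene per number (77 genes) and, per kb of exon length, an alternative chosen after seeing the data, 38877. The ratio of small to large subunit medians, 1.06, was 1.20 with no length correction and 1.12 with the length less 99 bases. It was 1.05 (1.047) at a baseMean of at least 100 and 1.05 (1.046) with the added genes. With 1 gene per number it was 1.04 and by exon length 1.13, and so the ratio was above 1 under each of these. No paired analysis was possible because the table holds 1 mean over all libraries. For the same reason leaving out replicates, the block, DESeq2 beside edgeR and the filter on low counts were not run for HS against CTRL, and no replicate error limits these values.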
